A study of Mus musculus with 4 samples.

Results

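The aminoacyl-tRNA synthetase genes were examined in HT-22 cells, an immortalized line made from mouse hippocampal neurons. Members were chosen by gene symbol, and 37 genes met the rule among 11502 symbols with a value in the table. Of these, 20 code for cytosolic enzymes and 17 for mitochondrial enzymes. A mitochondrial enzyme carries a 2 at the end of its symbol, except Tarsl2, whose product is a cytosolic threonine enzyme and which was placed there. Eprs, the enzyme for glutamate and proline in the cytosol, did not match the letters of the rule and is described as a partner gene. After genes with a mean under 1 FPKM were left out, 36 members remained among 10604 genes, and the one left out was Cars2.

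The series holds 4 groups with 1 library in each. Ctrl cells carried a negative control lentivirus and are labelled wild type. PGC-1α cells carried a lentivirus that overexpresses PGC-1α, and both types were selected with puromycin. Ctrl+OGD and PGC-1α+OGD cells additionally went through oxygen and glucose deprivation (OGD) for 2 h, in medium that lacked serum and glucose, and then 24 h in normal medium. The promoter that drives the transgene is not given in the sources used here, nor whether a line was 1 clone. Since each group is a single library, the differences below cannot be set against a spread between replicates and carry no p values. Where 4 values follow each other without names, they belong to Ctrl, then PGC-1α, then the OGD libraries of Ctrl and of PGC-1α cells.

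The overexpressed gene Ppargc1a was at 0.900 and 35.1 FPKM in Ctrl and PGC-1α cells without OGD, and at 0.103 and 8.41 FPKM with OGD. FPKM scales fragments by transcript length and by mapped fragments, and a gene's level here is the sum of its transcripts. The label of hippocampal neurons had little counterpart in the table, since 1 of 12 neuronal markers was listed, Camk2a, at 4.40 to 7.31 FPKM. The fibroblast collagens Col1a1 and Col1a2 together reached 392 to 463 FPKM, while Dcn and Lum were not listed. Of the glial markers, 3 of 5 for astrocytes, 2 of 5 for microglia and 1 of 4 for oligodendrocytes were listed, with summed levels of at most 24.0, 2.66 and 4.76 FPKM. None of the 3 endothelial markers was listed, and the part of any marker in the values of the synthetases was not tested. Since whole cultures were sequenced, fewer cells of a kind and less RNA per cell cannot be told apart.

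Aminoacyl-tRNA synthetases join each amino acid to its tRNA and so supply both translation machineries of the cell. Most amino acids have 2 enzymes from separate nuclear genes, one for cytosolic ribosomes and one imported into mitochondria, which translate a small set of respiratory chain subunits. The genes Gars and Kars supply both compartments from 1 gene each, and glutamine in mitochondria is charged by an indirect route through Ears2 and an amidotransferase. Several cytosolic enzymes sit in a multisynthetase complex, while the rest are free. Many cytosolic synthetase genes are known targets of ATF4, the transcription factor of the amino acid response, and PGC-1α is known to act on mitochondrial genes through NRF1 and the estrogen-related receptors (ERR).

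Promoter sequence is shown because ATF4, NRF1 and ERR bind short motifs that can be looked for in it. RefSeq promoters of GRCm38.p6, from 250 bases before to 50 bases after the start, were matched for 27 of the 37 members, 13 cytosolic and 14 mitochondrial. They were searched on both strands for 3 motifs, and no match of one overlapped a match of another. A member was counted once as a gene if any promoter matched to it held the motif, while the shares of all promoters count each promoter. TGATGNAAN, the composite element that ATF4 can bind, was found in 5 of 13 cytosolic promoters (Aars, Gars, Iars, Tars and Yars) and in 0 of 14 mitochondrial ones, where 3.95% of all 32851 promoters held it. GCATGCGC, the core of the NRF1 site, was found in 0 of 13 cytosolic promoters and in 3 of 14 mitochondrial ones (Rars2, Vars2 and Wars2), against 2.71% of all promoters. AAGGTCA, a half-site for ERR, was found in none of the 27, against 4.72% of all promoters. These are matches of letters and say nothing of binding in these cells.

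The cytosolic stretches with the ATF4 element are printed 5′ to 3′ on the gene's strand, with the match in capitals. They lie at chr8:111033709-111033757 (Aars, plus strand), chr6:55037950-55037998 (Gars, plus), chr13:49682120-49682148 (Iars, plus), chr15:11399659-11399694 (Tars, minus) and chr4:129189890-129189918 (Yars, plus). Counted from the transcription start, the first base of the match is at -113 in Aars, -31 in Gars, -16 in Tars, 7 in Iars and 4 in Yars. A second match in Aars begins at 9. The Yars promoter holds the motif on the gene's strand and the other 4 hold its reverse complement.
Aars: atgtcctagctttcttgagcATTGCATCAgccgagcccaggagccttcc
Gars: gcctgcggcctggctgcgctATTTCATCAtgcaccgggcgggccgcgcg
Iars: gcctggcactgtcagtATTGCATCAcctc
Tars: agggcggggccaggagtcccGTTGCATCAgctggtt
Yars: gagcgacgagctcagcTGATGCAACccga

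The mitochondrial stretches with the NRF1 core lie at chr4:34614886-34614933 (Rars2, plus strand), chr17:35667611-35667658 (Vars2, minus) and chr3:99141006-99141053 (Wars2, plus), with the match in capitals. The core begins at -51, -46 and -64 from the start in these 3 genes, and Vars2 holds it again at -20.
Rars2: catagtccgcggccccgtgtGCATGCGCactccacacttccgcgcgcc
Vars2: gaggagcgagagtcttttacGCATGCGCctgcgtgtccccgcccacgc
Wars2: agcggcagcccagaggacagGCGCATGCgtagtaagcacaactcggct

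The cytosolic enzymes were far more abundant than the mitochondrial ones in every library. The 20 cytosolic genes summed to 1242 and 1280.3 FPKM in Ctrl and PGC-1α cells, and after OGD to 1457 and 1432 FPKM. Both libraries with OGD were higher than both without it. The 17 mitochondrial genes summed to 108 and 119 FPKM in Ctrl and PGC-1α cells, and after OGD to 114 and 119.6 FPKM. Both PGC-1α sums thus lay above their controls, but under OGD the members were divided. Of the 16 compared, 9 were then higher with PGC-1α and 7 lower, and of the 7 with a mean of at least 5 FPKM, 3 were higher. Yars2 by itself went from 2.73 to 6.01 FPKM, so the sum under OGD cannot be read as a rise of the whole compartment. The cytosolic sum was 11.5, 10.8, 12.8 and 12 times the mitochondrial sum, in the same order of libraries. The median cytosolic gene was at 45.5 to 52.1 FPKM and the median mitochondrial gene at 4.35 to 5.53 FPKM, while the median of all compared genes was at 12.3 to 12.8 FPKM.

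Among cytosolic enzymes, Nars (asparagine) had the highest level with 197 and 194 FPKM in Ctrl and PGC-1α cells without OGD and 226 and 229 FPKM with it. Gars (glycine) was at 142, 165, 184 and 188 FPKM, and Sars (serine) at 159.6, 135, 165 and 154 FPKM, in the same order. For Nars and Gars both OGD libraries were the highest, whereas for Sars the PGC-1α library was the lowest. The lowest cytosolic levels were those of Qars (glutamine), Farsa and Tarsl2. Qars was at 3.89, 4.68, 4.82 and 6.26 FPKM, although the other synthetase members placed in the multisynthetase complex, apart from Mars, were at 41.7 FPKM or more. The table holds 4 Qars transcripts of 34 that GENCODE annotates, 8 of which are of the coding type, and whether reads of the others are missing from the value was not tested.

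Farsa and Farsb, the α and β subunits of the cytosolic phenylalanine enzyme, are both needed for activity but were at unequal levels. Farsb was at 18.6, 18, 20.4 and 18.5 FPKM, while Farsa was at 0.605 FPKM in Ctrl, 4.39 FPKM in PGC-1α and, after OGD, 5.68 and 9.59 FPKM. Farsa was thus lower than Farsb in all 4 libraries, and its own values spread over a 15.8-fold range, against 1.14-fold for Farsb. Tarsl2 was at 6.25, 8.14, 6.13 and 8.34 FPKM, with both PGC-1α libraries higher, and shares exons on its strand with Tm2d3.

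Among mitochondrial enzymes, Rars2 (arginine) led with 18.6, 19.8, 19.5 and 21.8 FPKM. Iars2 (isoleucine) followed with 17.7, 19.8, 18.4 and 17.1 FPKM, and Tars2 (threonine) with 13.4, 14.2, 16.8 and 16.1 FPKM. These 3 kept within a 1.25-fold range over the libraries. The lowest were Mars2 (methionine), at 1.78, 2.07, 1.68 and 1.97 FPKM, Ears2 (glutamate), at 2.01, 3.19, 2.54 and 1.54 FPKM, and Cars2 (cysteine). Cars2 was at 1.24 and 1.84 FPKM in Ctrl and PGC-1α cells, and after OGD it was at 0.244 FPKM in Ctrl cells and listed at 0 in PGC-1α cells, with both OGD libraries below both others. Its mean of 0.830 FPKM was under the limit for comparison, and its exons overlap those of Naxd on the opposite strand.

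**Figure D1:**
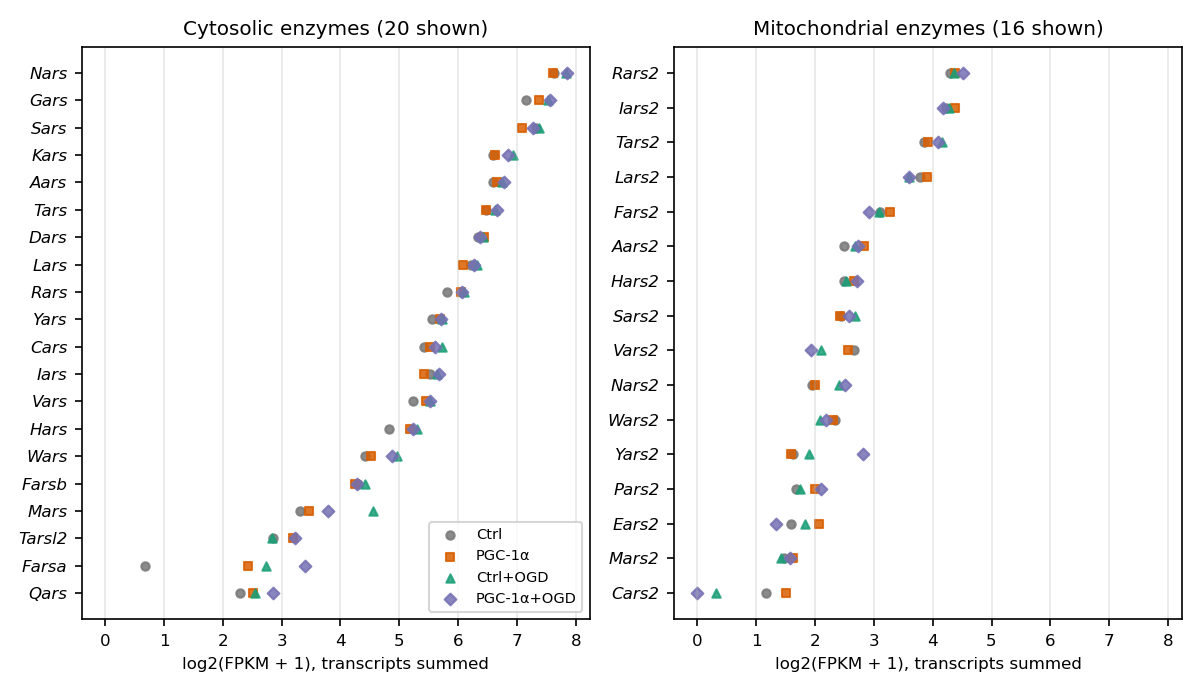
Levels of the synthetase genes shown in the 4 libraries, as log2(FPKM + 1) after summing the deposited transcripts (horizontal axis), with cytosolic genes on the left and mitochondrial genes on the right, ordered by mean. Each point is 1 library. The mitochondrial genes lie at or below 21.8 FPKM, and Farsa, Mars, Yars2 and Cars2 show a wide spread between libraries.

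The cytosolic enzyme was the more abundant of the pair in all 4 libraries for 13 amino acids compared as pairs, with Tars standing for threonine. The other cytosolic threonine gene, Tarsl2, was below Tars2 in all 4 libraries. Phenylalanine and cysteine were left out of the 13. Farsa was at 0.0797, 0.507 and 0.753 times Fars2 in the first 3 libraries and at 1.47 times in PGC-1α+OGD. Farsb was at 2.08 to 2.83 times Fars2, and Cars at 24.6 to 214 times Cars2 where Cars2 was above 0. For 8 of the 13 pairs the ratio stayed above 5 in all 4 libraries. The asparagine pair had the largest ratio, Nars being 69.3 times Nars2 in Ctrl and 64.1 times in PGC-1α, and after OGD 52.4 and 48.7 times. The isoleucine pair had the smallest, with Iars at 2.55, 2.11, 2.66 and 2.94 times Iars2, and the arginine pair was next with 2.97 to 3.47. Some pairs kept nearly the same ratio, such as threonine (5.84 to 6.57) and serine (30.6 to 36.3). In others it differed between libraries. For tyrosine the ratio was 22.1, 25.4 and 19.1 in the first 3 libraries and 8.52 in PGC-1α+OGD. For valine it was 6.92, 8.75, 13.7 and 16, higher in both OGD libraries.

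**Figure D2:**
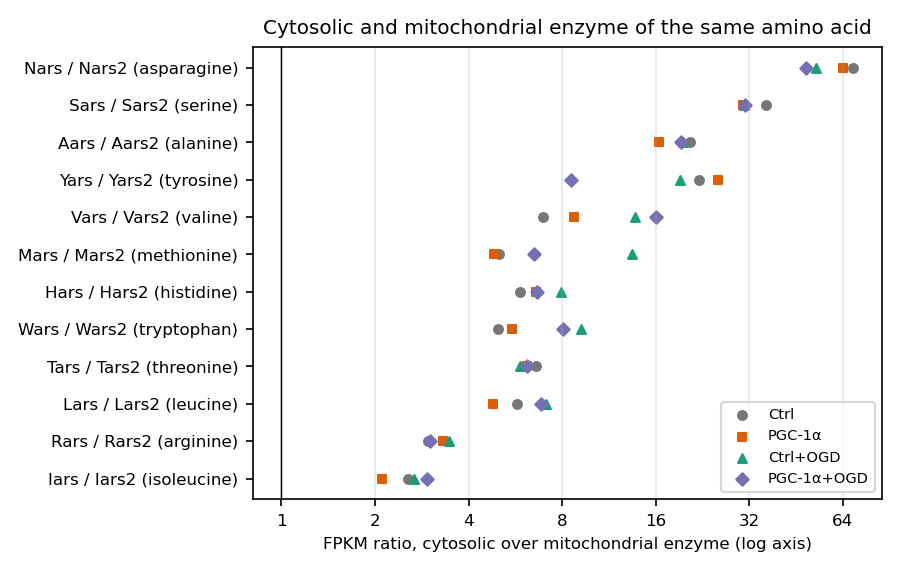
FPKM of the cytosolic enzyme divided by that of the mitochondrial enzyme for each amino acid shown (log axis), with 1 point per library. All points lie to the right of 1, between 2.11 (isoleucine) and 69.3 (asparagine), and the PGC-1α+OGD library stands apart for tyrosine.

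OGD was compared with no OGD in each cell type, to ask how tRNA charging genes stood after deprivation and recovery. The differences are given on the scale of log2(FPKM + 1), which understates those of low genes, and 1.5-fold is 0.585 on this scale. In Ctrl+OGD vs Ctrl, 19 of the 20 cytosolic enzymes were above 0, or 17 with equal column totals and 15 by the highest transcript of each gene, and their median was 0.22. For all genes 48.0% were above 0 and the median was -0.02, or -0.10 with equal column totals. For PGC-1α+OGD vs PGC-1α, 19 of 20 were above 0, or 16 under each of these alternatives, with a median of 0.18 against 0.00 for all genes. These 2 comparisons share no library, and 18 of the 20 cytosolic enzymes were above 0 in both, against 30.8% of all genes. The exceptions were Tarsl2 (-0.02 and 0.03) and Dars, the aspartate enzyme (0.09 and -0.06). All genes were not matched to the more abundant cytosolic enzymes by level. Whether abundant genes in general were above 0 as often was not tested.

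Most of these differences were small. In Ctrl+OGD vs Ctrl, 2 of 20 cytosolic enzymes were at least 1.5-fold higher, Farsa and Mars, and 0 lower, where 6.20% of all genes were higher and 7.71% lower. These shares are 657 and 818 genes, which became 498 and 1099 with equal column totals. Under the same limit 1 of 20 was at least 1.5-fold higher in PGC-1α+OGD vs PGC-1α, Farsa, and 0 lower, where 3.82% of all genes were higher and 5.22% lower. Of the 15 cytosolic enzymes with a mean of at least 20 FPKM, a limit set after the values were seen, 0 passed 1.5-fold in any of the 4 comparisons, although by its highest transcript Vars, the valine enzyme, was at -0.75 in PGC-1α+OGD vs PGC-1α. How many of all similarly abundant genes passed was not counted, so the 0 of 15 cannot be read as particular to the synthetases. In Ctrl+OGD vs Ctrl these 15 enzymes lay between 0.05 (Sars) and 0.54 (Wars, the tryptophan enzyme). Wars was at 20.3 and 21.8 FPKM in Ctrl and PGC-1α cells without OGD and at 30.0 and 28.5 FPKM with it, with both OGD libraries above both others. Hars (histidine) was at 27.2, 35.4, 38.2 and 36.7 FPKM, so that Ctrl alone was low. Kars (lysine) was at 95.0, 97.6, 121 and 114 FPKM, again highest in the OGD libraries.

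Mars, the methionine enzyme that also charges the initiator tRNA, had the largest difference of a cytosolic enzyme after Farsa. Without OGD it was at 8.97 and 10.0 FPKM in Ctrl and PGC-1α cells, and with OGD at 22.6 and 12.8 FPKM. Only the Ctrl+OGD library was high, and the log2 difference between OGD and no OGD was 1.24 in Ctrl and 0.32 in PGC-1α cells. In GRCm38, Mars occupies chromosome 10 from 127296221 to 127311786 on the minus strand, and its exons overlap those of Ddit3 on the opposite strand. Ddit3, a transcription factor of the stress response, was at 393, 91.8, 228 and 212 FPKM, an order that differs from that of Mars. The libraries were stranded, but whether strand was used in making the values is not given in the sources used here, and the part of Ddit3 reads in the Mars values was not tested.

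The mitochondrial enzymes were divided. In Ctrl+OGD vs Ctrl, 11 of 16 were above 0 with a median of 0.07, beside 48.0% and -0.02 for all genes. None was past 1.5-fold in either direction, where 6.20% of all genes were higher and 7.71% lower. With equal column totals 8 were above 0 and the median was -0.01, beside a median of -0.10 for all genes. With OGD in PGC-1α cells, 8 were above 0 and 8 below with a median of 0.00, beside 50.1% above 0 and a median of 0.00 for all genes. Here 2 of 16 were at least 1.5-fold higher, Yars2 among them, and 2 lower, Ears2 and Vars2, against the same 3.82% and 5.22% of all genes. Of the 16, 8 were above 0 in both comparisons and 5 below 0 in both, where 30.8% and 32.7% of all genes were.

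Vars2, the mitochondrial valine enzyme, was at 5.32 and 4.92 FPKM in Ctrl and PGC-1α cells, and after OGD at 3.31 and 2.81 FPKM. Both OGD libraries were below both others, with log2 differences of -0.55 in Ctrl and -0.64 in PGC-1α cells. It lies on the minus strand of chromosome 17 from 35655634 to 35667592. Nars2, the mitochondrial asparagine enzyme, went the other way at 2.84, 3.02, 4.31 and 4.71 FPKM, with differences of 0.46 and 0.50. Lars2 (leucine) was at 12.8, 14.0, 11.1 and 11.1 FPKM and Wars2 at 4.07, 3.96, 3.26 and 3.54 FPKM, both lower in the OGD libraries by less than 1.5-fold. The phenylalanine enzymes of the 2 compartments differed in direction in PGC-1α+OGD vs PGC-1α, where Farsa was at 0.98 and Fars2 at -0.35, but by the highest transcript both were above 0, at 0.56 and 0.50. Fars2 was at 7.60, 8.64, 7.54 and 6.55 FPKM.

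**Figure D3:**
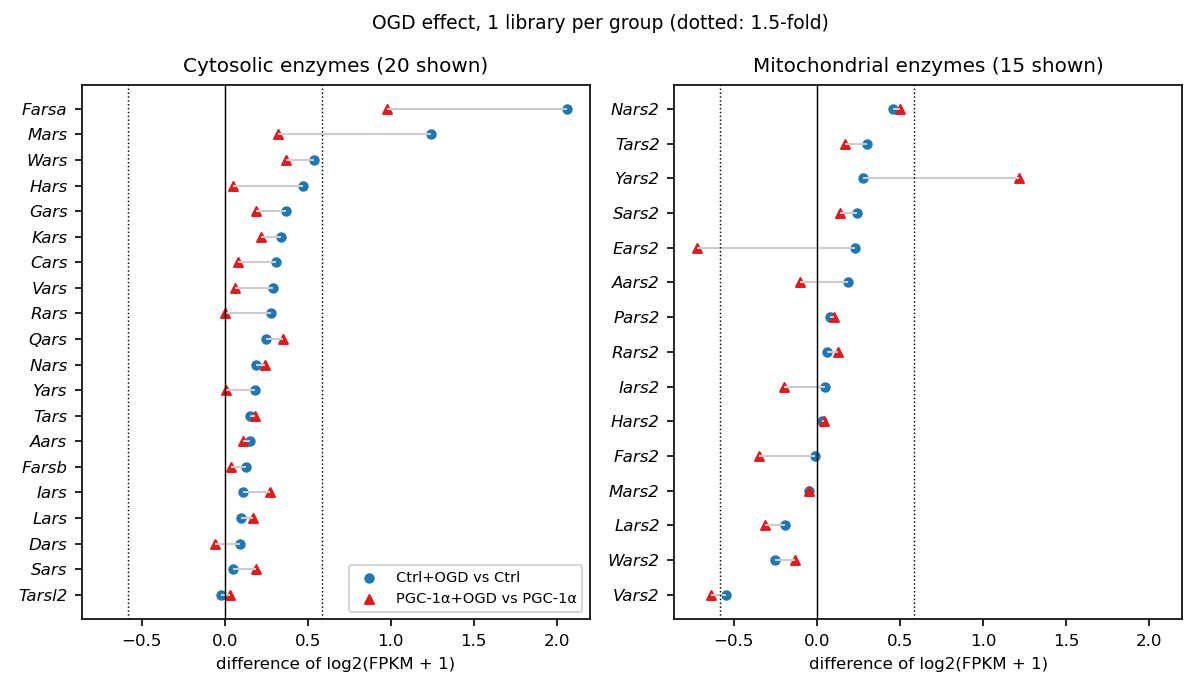
Difference of log2(FPKM + 1) between libraries with and without OGD for the synthetase genes shown (horizontal axis), in Ctrl cells (circles) and PGC-1α cells (triangles), with 1 library per group. Dotted lines mark 1.5-fold. In each cell type 19 of the 20 cytosolic genes lie at or above 0 (17 and 16 with equal column totals), while the mitochondrial genes spread to both sides.

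PGC-1α was compared with its control to ask whether enzymes of mitochondrial translation differed from cytosolic ones. Without OGD the 2 compartments had the same median, 0.10 for both, against -0.03 for all genes. Of the cytosolic enzymes 14 of 20 were above 0 and of the mitochondrial ones 11 of 16, where 45.8% of all genes were. In PGC-1α vs Ctrl, 1 of 36 members was at least 1.5-fold higher, the cytosolic Farsa, and 0 were lower, while 4.91% of all genes were higher and 5.63% lower. Under OGD, the cytosolic median was -0.03 and the mitochondrial median 0.07, against -0.01 for all genes. In PGC-1α+OGD vs Ctrl+OGD, 2 of 36 members were at least 1.5-fold higher, Yars2 and Farsa, and 1 was lower, Mars, while 3.08% of all genes were higher and 3.82% lower. PGC-1α vs Ctrl shares the Ctrl library with Ctrl+OGD vs Ctrl and the PGC-1α library with PGC-1α+OGD vs PGC-1α, so it is independent of neither. PGC-1α+OGD vs Ctrl+OGD likewise shares a library with each of these OGD comparisons. The comparisons of PGC-1α without and with OGD share no library. Of the cytosolic enzymes 5 of 20 were above 0 in both and 3 below 0 in both, and of the mitochondrial enzymes 6 of 16 and 2 of 16, where 23.3% and 30.4% of all genes were. The mitochondrial enzymes with the NRF1 core in the promoter differed without OGD by 0.09 (Rars2), -0.10 (Vars2) and -0.03 (Wars2). With OGD they differed by 0.15, -0.18 and 0.09.

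Farsa was the single member past 1.5-fold in all 4 comparisons. It lies on the plus strand of chromosome 8 from 84856989 to 84869257. With the values given above, PGC-1α cells differed from Ctrl cells by 1.75 on the log2 scale without OGD and by 0.67 with it, and OGD differed from no OGD by 2.06 in Ctrl and by 0.98 in PGC-1α cells. The Ctrl library alone was under 1 FPKM, and the PGC-1α+OGD library was the highest. By its more abundant transcript alone, the differences that involve PGC-1α+OGD were 0.23 against Ctrl+OGD and 0.56 against PGC-1α, both under 1.5-fold.

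Yars2, the mitochondrial tyrosine enzyme, was at 2.07 and 2.01 FPKM in Ctrl and PGC-1α cells, and after OGD at 2.73 and 6.01 FPKM. The PGC-1α+OGD library was the highest and the 2 libraries without OGD were the lowest. The log2 difference of PGC-1α vs Ctrl was -0.03, and under OGD it was 0.91. Between PGC-1α+OGD and PGC-1α it was 1.22. Yars2 lies on the plus strand of chromosome 16 from 16302965 to 16309640.

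Ears2 charges mitochondrial tRNAs with glutamate and lies on the minus strand of chromosome 7 from 122037213 to 122067263. Its 4 values above put PGC-1α at the top and PGC-1α+OGD at the bottom, and PGC-1α cells differed from Ctrl cells by 0.48 on the log2 scale without OGD and by -0.48 with it. Its exons overlap those of Ubfd1 on the opposite strand. Pars2 (proline) was at 2.19, 3.0, 2.37 and 3.28 FPKM and Tarsl2 at the values above, and in both genes the summed level was higher in the PGC-1α library with and without OGD. Pars2 differed by 0.33 and 0.35 (-0.18 without OGD by the highest transcript) and Tarsl2 by 0.33 and 0.39, all under 1.5-fold. The abundant cytosolic enzymes were close to their controls under OGD, where the 15 with a mean of at least 20 FPKM lay between -0.12 (Cars, cysteine) and 0.04 (Iars, isoleucine). Without OGD the same 15 lay between -0.24 (Sars) and 0.37 (Hars).

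**Figure D4:**
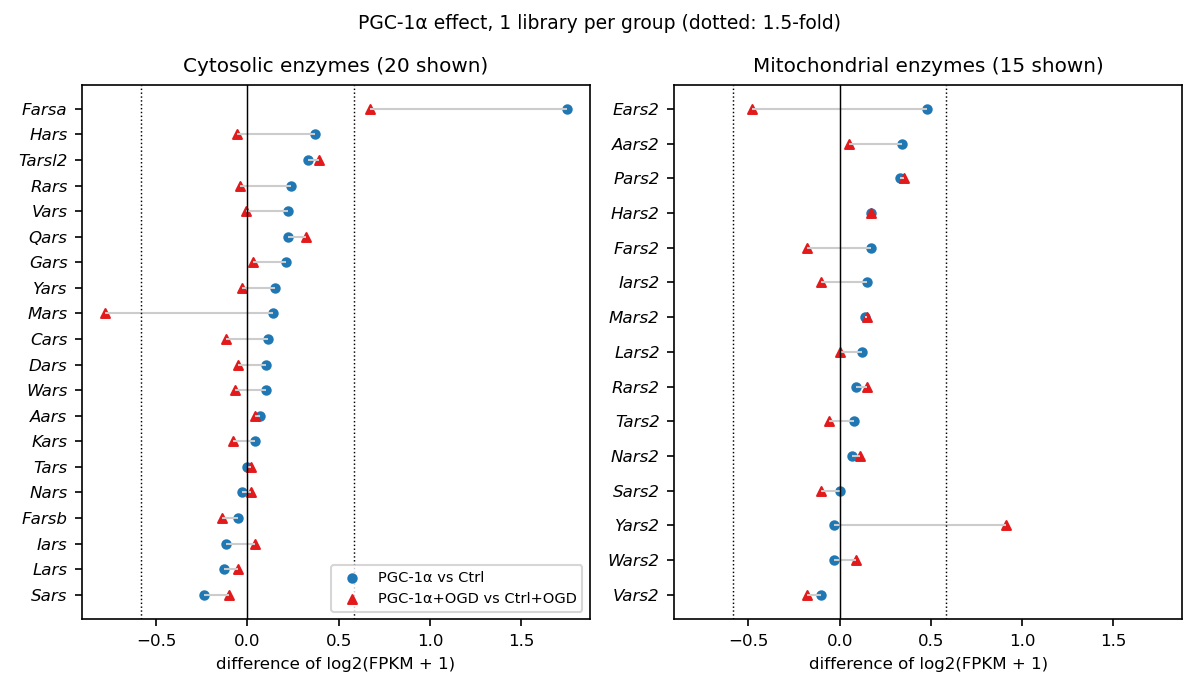
Difference of log2(FPKM + 1) between PGC-1α and control libraries for the synthetase genes shown (horizontal axis), without OGD (circles) and with OGD (triangles), with 1 library per group. Dotted lines mark 1.5-fold. Farsa is beyond the right line in both, Mars beyond the left line with OGD at -0.78, and Yars2 beyond the right line with OGD at 0.91.

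All 6 members past 1.5-fold in any comparison, among them Farsa, Mars, Yars2, Ears2 and Vars2, were under 10 FPKM in at least 1 library, and the other 30 members passed in none. The share of all genes past 1.5-fold in any comparison was not counted, so the 6 cannot be read against it. Low levels were common among all compared genes, whose median was at 12.3 to 12.8 FPKM. The 7 members of the multisynthetase complex had medians of 0.25 and 0.22 for OGD in Ctrl and PGC-1α cells, and the 13 free cytosolic enzymes 0.19 and 0.11. By catalytic fold, the 17 compared class I enzymes had medians of 0.18 and 0.06 and the 19 class II enzymes 0.19 and 0.14. For PGC-1α without OGD the medians were 0.10 in the complex, 0.11 among free enzymes, 0.12 in class I and 0.08 in class II.

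Several members were made of more than 1 transcript, and their shares differed between libraries. Of the 37 members, 20 had 2 or more deposited transcripts and 17 had 1. The Farsb total was nearly level, but its transcripts were not. ENSMUST00000170217, with 18 exons and a length of 2036 bases, reached 11.9 and 12.3 FPKM in Ctrl cells without and with OGD, and in PGC-1α cells was listed at 0 and at 1.58 FPKM. ENSMUST00000068333, with 17 exons and 1951 bases, was at 6.75, 12.1, 5.00 and 13.7 FPKM in the 4 libraries. Both PGC-1α libraries were therefore low for the longer transcript and high for the other, for which PGC-1α differed from Ctrl by 0.76 without OGD and 1.29 with it, against -0.05 and -0.14 for the sum. ENSMUST00000188247, with 970 bases, was listed at 0 in Ctrl and at 5.87, 3.06 and 3.18 FPKM in the others. Transcripts of 1 gene share much of their sequence, and how reads were divided between them is not given in the sources used here.

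The Mars value came mostly from ENSMUST00000037290, at 8.89, 10.0, 22.6 and 8.72 FPKM. By this transcript alone the difference of PGC-1α+OGD from Ctrl+OGD was -1.28 in place of -0.78, and that from PGC-1α was -0.18 in place of 0.32. In PGC-1α+OGD a short transcript of 621 bases, ENSMUST00000134778, was listed at 3.20 FPKM and at 0 elsewhere. For Farsa both transcripts were highest in PGC-1α+OGD, ENSMUST00000003906 at 0.605, 3.58, 4.75 and 5.74 FPKM and ENSMUST00000109754 at 0, 0.806, 0.931 and 3.85 FPKM. For Yars2, ENSMUST00000059955 was at 1.71, 1.80, 2.59 and 5.34 FPKM, which is most of the gene's value in each library.

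**Figure D5:**
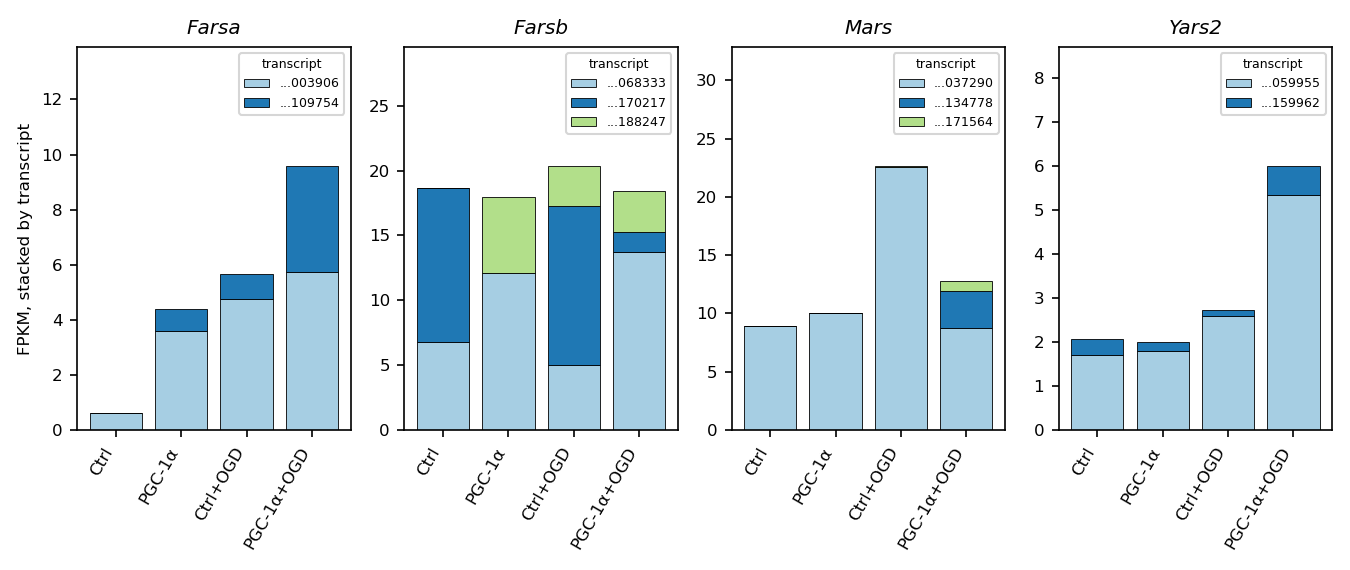
FPKM of each deposited transcript, stacked, for Farsa, Farsb, Mars and Yars2 in the 4 libraries (vertical axes start at 0 and differ between genes). The Farsb total stays between 18 and 20.4 FPKM while ENSMUST00000170217 is at 11.9 and 12.3 FPKM in the 2 control libraries and at 0 and 1.58 FPKM in the 2 PGC-1α libraries.

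The partners of the synthetases were described from lists of pathway genes. Of the 4 partners in the multisynthetase complex, 0 passed 1.5-fold in any comparison. Per comparison, 3.08% to 6.20% of all genes were higher and 3.82% to 7.71% lower at this limit. Eprs was at 151 and 118 FPKM in Ctrl and PGC-1α cells, and after OGD at 133 and 134 FPKM, with PGC-1α the lowest. Its difference of -0.36 in PGC-1α vs Ctrl was below that of every member. The scaffold Aimp2 was at 29.7, 30.6, 41.3 and 42.2 FPKM, higher in both OGD libraries (0.46 and 0.45), while the scaffold Aimp1 was at 70.1, 72.6, 70.1 and 76.3 FPKM. Of 8 other genes of tRNA charging and proofreading, 1 passed, Sepsecs, which makes selenocysteine on its tRNA. It was at 6.76, 6.01, 2.50 and 4.80 FPKM, with Ctrl+OGD the lowest. It differed by -1.15 in Ctrl+OGD vs Ctrl, where 7.71% of all genes were lower. In PGC-1α+OGD vs Ctrl+OGD it differed by 0.73, where 3.08% of all genes were higher.

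Of 16 genes for mitochondrial tRNA charging and translation factors, 1 was at least 1.5-fold higher in PGC-1α vs Ctrl and 3 were lower, where 4.91% and 5.63% of all genes were. Gfm1, a mitochondrial elongation factor, was at 24.0, 40.4, 36.3 and 47.2 FPKM, with Ctrl the lowest, and differed by 0.73. The lower genes were Mtg2 (a mitochondrial GTPase, -2.02), Mtrf1 (a release factor, -1.17) and Gatb (an amidotransferase subunit, -0.60). Mtg2 was at 13.1 and 2.49 FPKM in Ctrl and PGC-1α cells, and after OGD at 11.2 and 12.2 FPKM, so that PGC-1α alone was low. Their list median was 0.12, near that of the mitochondrial synthetases. In PGC-1α+OGD vs Ctrl+OGD 1 of 16 was higher, Mtrf1l at 0.59, beside 3.08% of all genes. In Ctrl+OGD vs Ctrl 1 was higher, beside 6.20% of all genes, and this was Mtfmt at 0.79, the enzyme that formylates the mitochondrial initiator tRNA. Finally, 4 were higher in PGC-1α+OGD vs PGC-1α, Mtg2 at 1.92, Mtrf1 at 1.31, Mtfmt at 0.76 and Gatb at 0.59, where 3.82% of all genes were higher. Mtg2, Mtrf1 and Gatb are the genes that were lower in PGC-1α vs Ctrl, which shares the PGC-1α library, and each was lowest there. Mtrf1 was at 3.04, 0.801, 3.57 and 3.47 FPKM and Gatb at 7.95, 4.92, 8.53 and 7.9 FPKM. Of 6 cytosolic elongation factors in the table, 1 passed in any comparison, Eif5a in Ctrl+OGD vs Ctrl at 0.62, where 6.20% of all genes were higher.

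The ATF4 pathway list, of which 30 of 32 genes were compared, did not follow the cytosolic synthetases in PGC-1α vs Ctrl. Its median was -0.28, 24 of 30 genes were below 0, 5 were at least 1.5-fold lower and 1 higher. Over all genes the median was -0.03, 45.8% were above 0, and 5.63% were lower and 4.91% higher. The lower genes were Ddit3 (-2.09), Chac1 (-1.65), Trib3 (-1.25), Sesn2 (-0.68) and Nupr1 (-0.63), and the higher one was Psat1, an enzyme of serine synthesis, at 1.06. Atf4 itself was at 314 and 221 FPKM in Ctrl and PGC-1α cells, and after OGD at 367 and 348 FPKM, with PGC-1α the lowest. The 5 synthetases with the ATF4 element in the promoter differed in PGC-1α vs Ctrl by 0.07 (Aars), 0.21 (Gars), -0.12 (Iars), 0.00 (Tars) and 0.15 (Yars). For OGD the list median was 0.20 in Ctrl cells and 0.32 in PGC-1α cells, with 3 and 5 genes at least 1.5-fold higher, against medians of -0.02 and 0.00 and shares of 6.20% and 3.82% over all genes. In Ctrl cells these were Shmt2 (0.98), Psph (0.91) and Herpud1 (0.63), while Ddit3 was lower (-0.78). In PGC-1α cells the largest were Chac1 (2.07), Ddit3 (1.20) and Ddit4 (0.83). For each of these genes the PGC-1α library, shared with PGC-1α vs Ctrl, was the lowest. Chac1 was at 8.57 and 2.06 FPKM in Ctrl and PGC-1α cells, and after OGD at 9.73 and 11.8 FPKM. Ddit3 was at 393 and 91.8 FPKM, and after OGD at 228 and 212 FPKM, below Ctrl in both OGD libraries. For OGD the 5 synthetases with the element differed by 0.15, 0.37, 0.11, 0.15 and 0.18 in Ctrl cells. In PGC-1α cells they differed by 0.11, 0.19, 0.27, 0.18 and 0.01, all above 0 and under 1.5-fold. Of all 20 cytosolic enzymes 18 were above 0 in both, with medians of 0.22 and 0.18. Being above 0 was thus not particular to these 5. Of the 30 genes 1 passed in PGC-1α+OGD vs Ctrl+OGD, Nupr1 at -0.88, where 3.82% of all genes were lower.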

How the data were processed

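The authors aligned 150 bp paired-end reads of poly(A) stranded libraries to GRCm38 with HISAT2, version 2.1.0 per the submitters' processing notes. They deposited 1 table of 25889 transcripts, taken as FPKM because the values are never negative and the column totals, 331892 to 353381, differ. The unit, the program and the annotation behind the values are not given in the sources used here. Every transcript reached at least 0.500 FPKM in a library. Reads per library are unknown, since at most 35.3% of low values lay within 0.1 of whole-read steps in 4994 genes with 1 transcript, so the precision of a value cannot be given.

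Identifiers without version matched GENCODE M21 for 25822 transcripts (99.7%). Transcripts were summed per symbol and compared as log2(FPKM + 1), without scaling, for genes with a mean of at least 1. A gene was counted at 1.5-fold. With 1 library per group there was no test, and lists were described by counts and medians beside those of all genes. Members were taken by symbol, and compartment, class and complex from general knowledge. Values in all libraries were given for members past 1.5-fold, for the 3 highest and lowest of each compartment, for pairs moving oppositely by over 0.3, and for list genes past 1.5-fold, at most 3 in each direction. Promoter stretches were to be shown for members past 1.5-fold, which of those with a match leaves Vars2, and the other 7 were chosen after their matches were seen, as were further genes named for their values. The values of 1 mitochondrial member are not reported here, and it is left out of the plots but kept in counts, sums and medians. The members and lists were chosen with earlier results of these data known. Alternatives were a pseudocount of 0.1, no filter, a mean of at least 5, median ratio scaling, equal column totals, the highest transcript, 2-fold, and other placings of Tarsl2, Gars and Kars. The computation was tested on simulated data and run in Python 3.11.15 (pandas 2.3.3, numpy 2.4.6), with plots by matplotlib 3.10.9.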

Additional observations from a re-analysis of the deposited data

Results flagged for a closer look

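The PGC-1α difference of Ears2 had opposite signs without and with OGD. Between PGC-1α and Ctrl cells the log2 difference was 0.48 without OGD and -0.48 with it, with 1 library per group. Both sizes exceeded 0.3 and neither reached 1.5-fold, while with a pseudocount of 0.1 both did, at 0.64 and -0.69. Whether the 2 differences differ was not tested, since no group has a replicate.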

How the results depend on the processing

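No paired analysis was possible because each group has 1 library and no result comes from a test. No median of a compartment moved by more than 0.1, and no difference past 1.5-fold changed sign, under any alternative. With the highest transcript, however, 23 of 144 differences of members changed sign, among them those of Qars (0.35 to -0.73) and Vars (0.06 to -0.75) for OGD in PGC-1α cells, of Tars2 (0.30 to -0.29) for OGD in Ctrl cells and of Farsb for PGC-1α (-0.05 to 0.76, and -0.14 to 1.29 with OGD). Counts of members past 1.5-fold in either direction changed by more than 1.5 times, or from or to 0, in 15 cases, and from 4 to 5 for mitochondrial members under OGD in PGC-1α cells with a pseudocount of 0.1, no filter or the highest transcript. With a pseudocount of 0.1 the mitochondrial count was 1 in PGC-1α vs Ctrl, 3 in PGC-1α+OGD vs Ctrl+OGD and 2 in Ctrl+OGD vs Ctrl. With no filter the last was 1, as it was with equal column totals. With a mean of at least 5, which left 7 mitochondrial members, it was 0 in PGC-1α+OGD vs Ctrl+OGD and 0 for OGD in PGC-1α cells. Median ratio scaling and equal column totals each gave 2 in PGC-1α+OGD vs Ctrl+OGD. With the highest transcript the cytosolic count was 2 in PGC-1α vs Ctrl and 2 for OGD in PGC-1α cells, where Qars and Vars were lower and Farsa no longer passed, and in PGC-1α+OGD vs Ctrl+OGD Farsb passed in place of Farsa. At 2-fold, 0 cytosolic and 0 mitochondrial members passed in PGC-1α+OGD vs Ctrl+OGD, and 0 and 2 for OGD in PGC-1α cells.

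The cytosolic median ranged from 0.14 to 0.25 in Ctrl+OGD vs Ctrl and from 0.10 to 0.18 for OGD in PGC-1α cells over the alternatives. The mitochondrial median ranged from -0.01 to 0.15 and from -0.10 to 0.04. Less the all-gene median of the same alternative, the cytosolic medians were 0.18 to 0.27 and 0.09 to 0.18. The mitochondrial ones were then 0.04 to 0.16 and -0.12 to 0.03. With the highest transcript, 15 and 16 of 20 cytosolic enzymes were above 0 in these 2 comparisons. For PGC-1α without OGD the cytosolic median ranged from 0.08 to 0.14 and the mitochondrial median from 0.06 to 0.15. For PGC-1α with OGD they ranged from -0.04 to -0.01 and from 0.00 to 0.10. With a mean of at least 5, 7 of 7 mitochondrial members were above 0 for PGC-1α without OGD and 3 of 7 with it. Over all genes, the count past 1.5-fold rose from 1118, 732 and 958 to 1785, 1364 and 1690 with the highest transcript for PGC-1α without OGD, PGC-1α with OGD and OGD in PGC-1α cells, and the cause was not tested. With a mean of at least 5 it was 731, 433 and 570, and at 2-fold 318, 222 and 303, beside 364 of 1475 for OGD in Ctrl cells. In Ctrl+OGD vs Ctrl, 657 genes were higher and 818 lower, and with equal column totals 498 and 1099. The highest transcript listed above 0 in all 4 libraries, an alternative chosen after seeing the data, gave the same values for Mars and Farsa as the highest transcript. The depth is unknown, so a difference between low members such as Ears2 and Yars2 cannot be set against counting error.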

Other observations

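Other members with several transcripts also differed in their makeup. The Qars transcript ENSMUST00000134939 was at 0.0763 and 0.247 FPKM in Ctrl and PGC-1α cells, and after OGD at 1.88 and 3.70 FPKM, higher in both OGD libraries. ENSMUST00000006838 of the same gene was at 2.78, 3.76, 2.66 and 1.88 FPKM. The Fars2 transcript ENSMUST00000224611, with 8 exons, was at 3.73, 4.31 and 1.22 FPKM in the first 3 libraries and was listed at 0 in PGC-1α+OGD, while ENSMUST00000021857, with 7 exons, was at 3.87, 4.34, 4.92 and 6.55 FPKM. Of the 9 deposited Tars2 transcripts, ENSMUST00000029752 was at 1.09 and 1.38 FPKM without OGD and at 5.49 and 5.04 FPKM with OGD, in Ctrl and PGC-1α cells, and the gene total was 13.4 to 16.8 FPKM. How reads were divided between transcripts is not given in the sources used here.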
